A study of Mus musculus with 16 samples.

Results

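The neutrophil granule genes S100a8, S100a9, Lcn2, Ngp, Camp, Ltf, Mmp8, Mmp9 and Retnlg were followed across sorted fractions of mouse olfactory mucosa. They were chosen by name, with earlier results of these data known, as the features annotated to these symbols. Each of the 9 genes had 1 feature among the 19572 tested features, which covered 19505 genes.

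Neutrophils carry ready-made proteins in granules that they fill while they mature in the bone marrow and empty on activation. Secondary (specific) granules hold lactoferrin, lipocalin 2, the cathelicidin precursor and collagenase, tertiary granules hold gelatinase, and S100A8 with S100A9 forms calprotectin, the most abundant protein complex of the neutrophil cytosol. Transcription of the granule genes is driven by factors of the C/EBP family together with PU.1, the product of Spi1, and ends largely before the cells leave the marrow, while S100a8, S100a9 and Retnlg stay transcribed in mature cells.

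The samples were 16 Clariom S arrays, a microarray with 1 summarized signal per gene, from C57BL/6 mice carrying S100a5-tauGFP, a reporter that makes fluorescence follow S100a5, a gene that olfactory sensory neurons express when active. The 24 mice, of both sexes and 7 to 12 weeks old, spent 40 h singly in chambers with clean air at 3.1 L/min. From 26 h on, they received either filtered air (vehicle) or a mixture of undecanal and bourgeonal (odor), an aliphatic and an aromatic aldehyde, for 10 s every 20 min. Olfactory mucosa of 3 mice was pooled, dissociated and sorted by fluorescence, which gave 4 odor and 4 vehicle pools, each with an array titled GFP+ and an array titled GFP-. All groups therefore carried the reporter, and none was unsorted tissue or blood. The labels name no sort against leukocytes.

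The cell type entry of the labels opposes the title on all 16 arrays, so each fraction goes by its title, and differences run as titled GFP- minus titled GFP+. S100a5 itself was higher in the titled GFP- fraction, by 1.00 ± 0.20 log2 units (SE) in vehicle pools (adjusted p = 0.0019) and 1.31 ± 0.20 in odor pools (adjusted p = 1.6e-04, limma with Benjamini-Hochberg adjustment, 4 arrays per group), against the titles, and with arrays centred on the median of their odorant receptor features its vehicle difference was 0.73 (adjusted p = 0.11). In odor pools this centring gave 0.84 (adjusted p = 0.04). Under the cell type entry the fraction names would be exchanged. Pearson correlations between replicates within a group were 0.979 to 0.995, and array medians of the tested features ranged from 6.76 to 6.84 in titled GFP- and from 7.10 to 7.32 in titled GFP+ arrays. Of 10 markers of mature olfactory sensory neurons, 9 were above background on all 4 vehicle arrays of each fraction, with Omp, the olfactory marker protein, at group means of 18.43 to 18.60. The titled GFP+ array of odor replicate 1 stood apart from the other titled GFP+ arrays, with a receptor median of 7.94 against 8.59 to 9.18 and S100a5 at 14.65 against 15.22 to 15.75, and without that pool all 9 granule genes were still called in each treatment.

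Promoters were read to show what the 9 genes share beside their pattern. RefSeq promoters of assembly GRCm38.p6 were given for 8 of the 9, all but Mmp9. The 250 bases before each start were searched on both strands for TTGCNNAA, a form of the C/EBP site, and for GAGGAA, the core of the PU.1 site. TTGCNNAA occurred in 6 of the 8 promoters (S100a9, Lcn2, Ngp, Ltf, Mmp8 and Retnlg), against 9.56% of 32851 promoters of the same length. GAGGAA occurred in 4 of the 8 (S100a8, Lcn2, Ltf and Mmp8), against 23.3% of those promoters. The 2 motifs did not overlap in any of the 8. S100a8 and S100a9 are shown because these neighbours hold different motifs, Ngp because it holds TTGCNNAA 2 times, Lcn2 and Ltf because they hold both motifs, and Camp because it holds neither. Capitals mark each match, read as it stands on the strand of the gene, 5′ to 3′. The windows are chr3:90668821-90669070 (plus strand) for S100a8, chr3:90695722-90695971 (minus) for S100a9, chr2:32387740-32387989 (minus) for Lcn2, chr9:110419558-110419807 (plus) for Ngp, chr9:111019042-111019291 (plus) for Ltf and chr9:109849457-109849706 (minus) for Camp.
S100a8: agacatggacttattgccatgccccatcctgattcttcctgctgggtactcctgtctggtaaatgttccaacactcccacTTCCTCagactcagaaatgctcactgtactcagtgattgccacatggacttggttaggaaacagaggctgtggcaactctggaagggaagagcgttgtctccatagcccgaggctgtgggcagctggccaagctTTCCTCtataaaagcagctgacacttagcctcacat
S100a9: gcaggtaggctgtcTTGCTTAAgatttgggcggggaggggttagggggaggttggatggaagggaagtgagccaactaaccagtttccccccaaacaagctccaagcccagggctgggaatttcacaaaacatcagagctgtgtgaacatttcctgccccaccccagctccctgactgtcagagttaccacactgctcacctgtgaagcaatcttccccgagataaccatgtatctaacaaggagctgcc
Lcn2: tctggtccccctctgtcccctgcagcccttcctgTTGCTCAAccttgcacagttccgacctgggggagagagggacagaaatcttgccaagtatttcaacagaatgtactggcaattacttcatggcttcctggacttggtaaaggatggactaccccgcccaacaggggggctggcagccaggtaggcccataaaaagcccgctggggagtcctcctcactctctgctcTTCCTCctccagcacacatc
Ngp: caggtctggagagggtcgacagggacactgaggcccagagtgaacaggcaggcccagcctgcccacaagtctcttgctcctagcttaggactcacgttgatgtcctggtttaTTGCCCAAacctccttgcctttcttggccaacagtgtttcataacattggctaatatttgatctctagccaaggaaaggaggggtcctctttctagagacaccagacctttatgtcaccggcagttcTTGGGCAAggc
Ltf: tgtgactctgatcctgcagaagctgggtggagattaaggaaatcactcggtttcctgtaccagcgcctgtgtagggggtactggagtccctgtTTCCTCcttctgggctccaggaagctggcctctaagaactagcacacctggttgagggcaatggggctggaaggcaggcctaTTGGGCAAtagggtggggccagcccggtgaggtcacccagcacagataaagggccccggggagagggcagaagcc
Camp: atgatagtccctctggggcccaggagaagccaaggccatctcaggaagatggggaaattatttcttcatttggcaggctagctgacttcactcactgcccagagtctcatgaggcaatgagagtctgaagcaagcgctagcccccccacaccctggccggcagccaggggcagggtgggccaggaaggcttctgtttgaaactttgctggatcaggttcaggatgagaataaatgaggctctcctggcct

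In Ngp the matches to TTGCNNAA begin 138 and 11 bases before the start, in Lcn2 216 and in Ltf 75 bases before it. The GAGGAA matches of S100a8 begin 170 and 36 bases before the start, all as TTCCTC on the strand of the gene. In Mmp8 (chr9:7558179-7558428, plus) TTGCTCAA begins 19 bases and TTCCTC 219 bases before the start, and in Retnlg (chr16:48872358-48872607, plus) TTCTGCAA begins 246 bases before it. These matches are letters in a window, not measured sites, and Camp, which has neither, showed the same fraction pattern as the others.

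All 9 genes were high in titled GFP+ and dim in titled GFP- arrays. A signal counted as above background when it exceeded the 95th percentile of the array's 23 background features graded by GC content, a level between 6.87 and 7.41 log2 units on the 16 arrays. All 72 values of the 9 genes in titled GFP+ arrays were above it, and in titled GFP- arrays 1 of 72 was. All 9 genes were lower in titled GFP- at an adjusted p under 0.05 in vehicle and in odor pools, where 9.82% and 9.98% of all features were called lower (limma, Benjamini-Hochberg over 19572 features). Of all features, 7.05% were called higher in titled GFP- in vehicle pools. The split of calls over all features depended on the scaling, with 1380 higher and 1922 lower as deposited in vehicle pools, 12456 and 1529 after subtracting each array's median over tested features, and 343 and 1801 with arrays centred on the receptor median. The 9 genes were called lower under each of these. The median difference of the 9 genes was -9.10 in vehicle and -9.28 in odor pools, against 0.13 and 0.14 over all features. Because the dim fraction lay at background, each fold is given as a lower bound, the titled GFP+ mean over the lowest signal above background, or over the dim array's own value where that was higher. The bounds depend on how bright a probe is and do not order the genes.

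**Figure D1:**
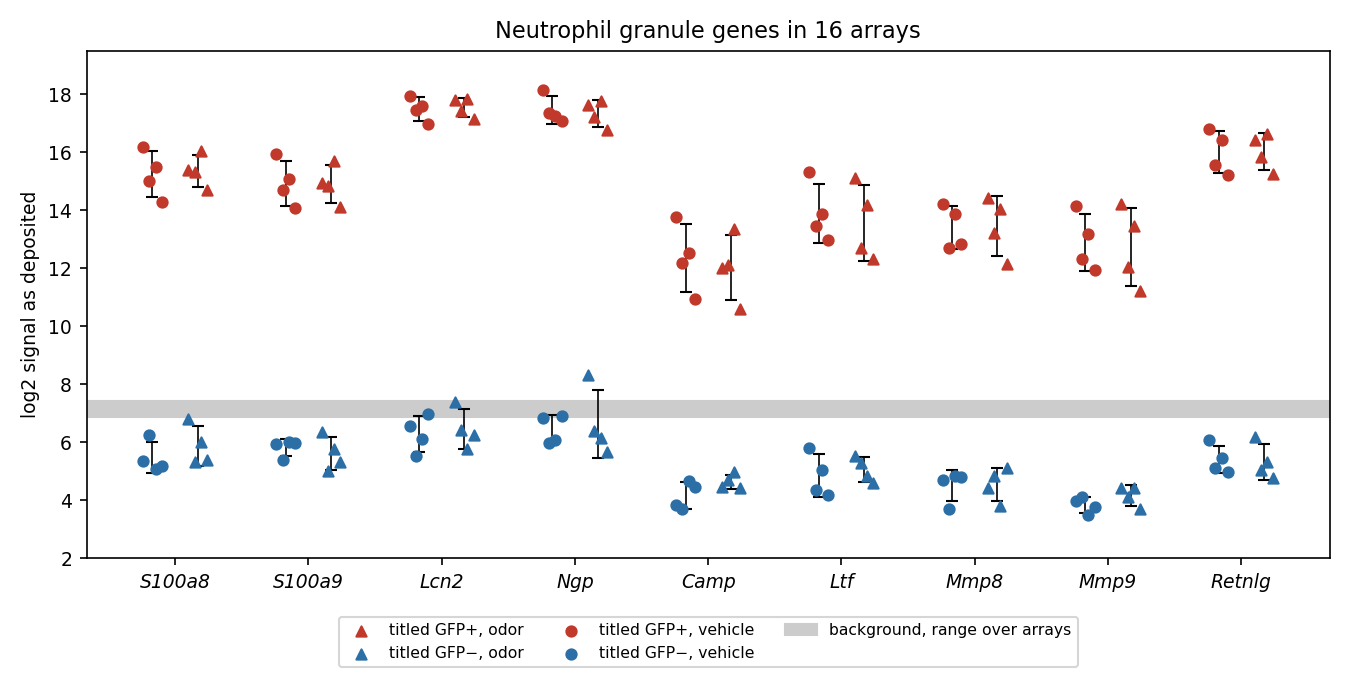
Log2 signal (y axis) of the 9 granule genes (x axis) on each of 16 arrays, with circles for vehicle and triangles for odor pools, red for titled GFP+ and blue for titled GFP-; bars span the mean ± SD of 4 arrays and the grey band is the range of the background level. All red points lie between 10.60 and 18.14, above the band, and all blue points lie at or under it except Ngp in odor replicate 1 at 8.33.

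S100a8 and S100a9 encode the calcium-binding subunits of calprotectin. In titled GFP+ arrays of vehicle replicates 1 to 4, S100a8 stood at 16.18, 15.03, 15.48 and 14.28 log2 units. In the odor replicates it stood at 15.39, 15.31, 16.05 and 14.71. The 8 titled GFP- arrays lay between 5.08 and 6.82, so that the fractions were at least 7.46 units apart with no overlap. S100a8 differed by -9.77 ± 0.41 (SE) in vehicle pools (adjusted p = 9.3e-11) and by -9.48 ± 0.41 in odor pools (adjusted p = 1.4e-10), and was at least 267-fold and 279-fold higher in titled GFP+ (4 arrays per group, limma). Within single pools its measured difference ranged from 8.78 to 10.82 with vehicle and from 8.57 to 10.03 with odor, titled GFP+ over titled GFP-.

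S100a9 followed S100a8 array by array. Its vehicle titled GFP+ arrays read 15.93, 14.69, 15.07 and 14.07, and its odor arrays 14.96, 14.83, 15.71 and 14.10. Its titled GFP- arrays lay between 5.03 and 6.35, all below background. The fitted differences were -9.10 ± 0.38 with vehicle (adjusted p = 9.3e-11) and -9.28 ± 0.38 with odor (adjusted p = 8.5e-11), or at least 216-fold and 202-fold. Over the 8 titled GFP+ arrays S100a8 and S100a9 had the highest pairwise correlation among the 9 genes (Pearson r = 0.982). These genes are neighbours on chromosome 3 with 0 protein-coding genes between them in RefSeq.

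Lcn2 encodes lipocalin 2, a specific granule protein that binds iron-loaded bacterial siderophores. It stood at 17.96, 17.44, 17.59 and 16.97 in the vehicle titled GFP+ arrays and at 17.80, 17.43, 17.84 and 17.15 in the odor arrays. Its titled GFP- arrays lay between 5.53 and 7.40, the highest being odor replicate 1, just under that array's background of 7.40. Lcn2 was at least 1268-fold higher in titled GFP+ with vehicle (-11.19 ± 0.34, adjusted p = 3.1e-12) and at least 1275-fold with odor (-11.09 ± 0.34, adjusted p = 3.6e-12). The titled GFP+ values were close together, with a range of 0.99 units among vehicle and 0.69 among odor arrays.

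Ngp encodes neutrophilic granule protein, a cathelicidin relative of the specific granules. Its vehicle titled GFP+ arrays read 18.14, 17.37, 17.26 and 17.07 and its odor arrays 17.62, 17.21, 17.78 and 16.77. In titled GFP- arrays it lay between 5.98 and 6.91 with vehicle and at 8.33, 6.38, 6.15 and 5.67 with odor, and the 8.33 of odor replicate 1 was the value above background. The vehicle difference of Ngp was -11.01 ± 0.45 (adjusted p = 7.4e-11), at least 1243-fold. The odor difference was -10.71 ± 0.45 (adjusted p = 8.9e-11), at least 937-fold, with the dim fraction measured on 1 of 4 arrays.

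Camp encodes the cathelicidin precursor, from which the antimicrobial peptide CRAMP is cut. Its vehicle titled GFP+ arrays read 13.77, 12.20, 12.52 and 10.94 and its odor arrays 12.00, 12.12, 13.37 and 10.60. Its titled GFP- arrays stayed between 3.72 and 4.96. Camp differed by -8.19 ± 0.53 with vehicle (adjusted p = 1.4e-08) and by -7.38 ± 0.53 with odor (adjusted p = 4.7e-08), at least 36.2-fold and 27.5-fold. The titled GFP+ arrays of Camp ranged over 2.83 units with vehicle and 2.77 with odor.

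Ltf encodes lactoferrin, an iron-binding protein of specific granules that glands of mucous membranes also secrete. It stood at 15.31, 13.45, 13.86 and 12.97 in vehicle and at 15.13, 12.69, 14.17 and 12.32 in odor titled GFP+ arrays. Replicate 1 was highest in both treatments. The titled GFP- arrays lay between 4.20 and 5.81. Ltf was at least 105-fold higher in titled GFP+ with vehicle (-9.04 ± 0.57, adjusted p = 1.2e-08) and at least 80.8-fold with odor (-8.51 ± 0.57, adjusted p = 2.5e-08). Of 13 markers of secretory and gland epithelium, 1 was lower in titled GFP- in vehicle pools, against 9.82% of all features. It was Sox9, a transcription factor of gland cells, at least 7.94-fold (adjusted p = 5.4e-08, limma). Another 9 were below background on all 8 vehicle arrays. The mean over all 13 ranged from 4.92 to 5.48 on titled GFP+ and from 4.55 to 5.08 on titled GFP- arrays, and the part of gland cells in the Ltf signal was not tested.

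Mmp8 encodes neutrophil collagenase and Mmp9 gelatinase B, proteases that cut extracellular matrix. Mmp8 stood at 14.21, 12.69, 13.87 and 12.86 in vehicle titled GFP+ arrays and at 14.44, 13.21, 14.06 and 12.13 in odor arrays. In titled GFP- arrays it lay between 3.70 and 5.11. Mmp8 was at least 74.8-fold (-8.89 ± 0.47, adjusted p = 1.1e-09) and 74.6-fold (-8.92 ± 0.47, adjusted p = 1e-09) higher in titled GFP+ with vehicle and odor. Mmp9 read 14.14, 12.31, 13.19 and 11.94 with vehicle and 14.22, 12.06, 13.46 and 11.21 with odor in titled GFP+, and from 3.50 to 4.43 in titled GFP-. Mmp9 differed by -9.06 ± 0.54 with vehicle (adjusted p = 5.1e-09) and by -8.57 ± 0.54 with odor (adjusted p = 1.1e-08), at least 52.5-fold and 45.2-fold. In both genes replicates 1 and 3 lay above 2 and 4 in each treatment.

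Retnlg encodes resistin-like gamma, a small secreted protein made by neutrophils. Its titled GFP+ arrays read 16.82, 15.58, 16.42 and 15.23 with vehicle and 16.43, 15.85, 16.64 and 15.23 with odor. Its titled GFP- arrays lay between 4.78 and 6.19, all below background. Retnlg was at least 455-fold higher in titled GFP+ with vehicle (-10.60 ± 0.39, adjusted p = 2.5e-11) and at least 445-fold with odor (-10.71 ± 0.39, adjusted p = 2.1e-11). In sorted bulk RNA, fewer neutrophils and less granule RNA per cell cannot be told apart. The p-values measure the spread between pools of different mice, and both fractions of a pool come from the same animals.

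Other neutrophil genes, in lists also chosen with earlier results of these data known, showed the same direction. In 3 lists of azurophil granule, other granule or cytosol, and surface receptor genes, 34 of 34 measured members were lower in titled GFP- in vehicle pools and 33 of 34 in odor pools, against the 9.82% and 9.98% of all features, and 0 of the 34 were above background on all 4 vehicle titled GFP- arrays. Of the 5 azurophil genes, whose transcription marks early promyelocytes, Mpo (myeloperoxidase) was at least 35.0-fold and Elane (neutrophil elastase) at least 16.1-fold higher in titled GFP+ with vehicle (adjusted p = 2.3e-07 and 4.9e-07). Prtn3 (proteinase 3) was at least 1.67-fold higher, and Ctsg (cathepsin G) was above background on 1 of 8 vehicle arrays. The list median was -2.73, and -0.74 with each gene at its bound.

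Among 16 other granule and cytosol genes, Chil3 (a chitinase-like lectin) was at least 453-fold higher in titled GFP+ with vehicle, above background on 1 of 4 titled GFP- arrays, and Anxa1 (annexin A1) at least 91.5-fold. Hp (haptoglobin) was at least 44.2-fold and Cybb, the catalytic subunit of the phagocyte oxidase, at least 145-fold higher, Cybb also being above background on 1 of 4 dim arrays. Stfa1 lay below background on all 8 vehicle arrays. Lrg1 was at least 2.17-fold and Asprv1 at least 3.37-fold higher, Asprv1 being above background on 2 of 4 dim arrays. Of 13 surface receptors, Itgam (CD11b) was at least 30.3-fold, Fcgr3 at least 35.5-fold, Csf3r, the receptor of granulocyte colony-stimulating factor, at least 14.4-fold and Cxcr2 at least 6.07-fold higher (adjusted p up to 1.0e-04). Mcemp1 and Trem3 were at least 3.09-fold and 2.85-fold higher, at the GC-graded background level. The array carries no tested feature for Ly6g, so the antigen used most to sort mouse neutrophils was not read.

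Of 7 regulators of granulopoiesis, 4 were lower in titled GFP- in each treatment, against 9.82% (vehicle) and 9.98% (odor) of all features. Spi1, which encodes PU.1, was at least 205-fold higher in titled GFP+ with vehicle (-8.37 ± 0.36, adjusted p = 1.1e-10), above background on 1 of 4 dim arrays. Cebpd was at least 1.18-fold higher (adjusted p = 3.0e-05) and Cebpa, above background on all 8 vehicle arrays, differed by -0.96 ± 0.19 (adjusted p = 0.0015). Cebpe, the C/EBP factor most tied to specific granules, passed at -1.38 ± 0.35 (adjusted p = 0.01) but lay below background on all 8 vehicle arrays. Cebpb differed by -0.22 ± 0.19 (adjusted p = 0.44), and Gfi1 and Csf3 were below background in both fractions.

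Of 8 neutrophil chemoattractants and cytokines, 4 were lower in titled GFP- in vehicle pools, against 9.82% of all features, and 5 were below background on all 8 vehicle arrays. Il1b was at least 25.5-fold, Cxcl2 at least 2.01-fold and Tnf, measured on 2 of 4 titled GFP+ arrays, at least 1.22-fold higher in titled GFP+ (adjusted p = 2.4e-07, 1.1e-06 and 1.1e-04). Il6 passed at -1.84 ± 0.47 (adjusted p = 0.012) with both fractions below background. Among 12 genes for partners of the granule proteins, 8 were below background on all vehicle arrays. The 2 that passed, both lower, against 9.82% of all features, were among these 8. They were Tlr4, a receptor of S100A8 and S100A9, at -2.05 (adjusted p = 0.0028) and Lrp1 at -1.06 (adjusted p = 0.0046). Slc22a17, a lipocalin 2 receptor, differed by 0.11 ± 0.11 (adjusted p = 0.53), Timp2, an inhibitor of gelatinases, by 0.07 ± 0.16 (adjusted p = 0.80) and Cd36 by -0.30 ± 0.15 (adjusted p = 0.19) in vehicle pools. Subtracting each array's median over tested features, which moved the median over all features from 0.13 to 0.54, gave 0.51 for Slc22a17 and 0.47 for Timp2, both called, while centring on the receptor median turned them to -0.16 and -0.20.

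Relatives of the granule genes showed mixed directions, in counts to be read against 9.82% lower and 7.05% higher of all features in vehicle pools as deposited. Counts after subtracting each array's median over tested features are to be read against 1529 lower and 12456 higher of 19572 features. Those with arrays centred on the receptor median are to be read against 1801 lower and 343 higher. Of 15 genes listed as other S100 genes, 4 were lower and 2 higher in titled GFP- in vehicle pools, with 4 lower and 9 higher after subtracting each array's median over tested features, and 4 lower and 0 higher with arrays centred on the receptor median. The 15 include S100pbp (0.25, adjusted p = 0.32, limma), which encodes a binding protein of S100P and is no member of the family. S100a11 was at least 96.0-fold higher in titled GFP+ (adjusted p = 4.8e-09, above background on 1 of 4 dim arrays), S100a4 at least 1.11-fold, and S100a6 and S100a10 were above background on 1 of 8 vehicle arrays each. Of the 2 called higher, S100a3 (0.72 ± 0.19, adjusted p = 0.013, limma) lay below background in both fractions. S100a5, which was higher in titled GFP-, lies on chromosome 3 with 2 genes, S100a6 and S100a7a, between it and S100a8. Of 17 other matrix metalloproteinase genes, 2 were lower and 3 higher in titled GFP- (8 higher after subtracting each array's median over tested features, 0 with the receptor median), and 13 were below background on all vehicle arrays. Of the 3 called higher, Mmp3 (0.58) and Mmp10 (0.47) were among these 13. Mmp12 and Mmp25 were at least 1.08-fold and 1.36-fold higher in titled GFP+ (adjusted p = 6.9e-07 and 1.8e-04, each above background on 2 of 4 arrays there), while Mmp24 was higher in titled GFP- by 0.52 ± 0.14 (adjusted p = 0.017), a call lost with arrays centred on the receptor median (0.25, adjusted p = 0.84). All 3 other resistin genes and all 9 other lipocalin genes measured were below background on all vehicle arrays.

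Some markers of other blood cells were also lower in titled GFP-, in shares to be read against the 9.82% (vehicle) and 9.98% (odor) of all features. All 11 monocyte and macrophage markers were lower in each treatment, with 9 of 11 in odor pools after renewed quantile normalization and 10 of 11 after subtracting each array's median over tested features, and 3 of the 11 with vehicle and 5 with odor lay below background in both fractions. Of the 11, Ly6c2 was at least 113-fold and Lyz2 at least 240-fold higher in titled GFP+ with vehicle (adjusted p = 2.5e-11 and 1.7e-08, limma). Lyz2, which neutrophils also express, was above background on 1 of 4 dim arrays. At the other end, Mrc1 was at least 2.01-fold higher, and C1qa differed by -1.49, above background on 3 of 4 titled GFP+ arrays. The 3 below background in both fractions with vehicle were the macrophage markers Adgre1 and C1qc, and Cx3cr1. The mean over all 11 ranged from 8.07 to 9.53 on titled GFP+ and from 4.75 to 5.76 on titled GFP- arrays. Of 7 dendritic and B cell markers 6 were lower with vehicle and 7 with odor, H2-Aa and H2-Ab1 at least 13.4-fold and 18.7-fold with vehicle. Cd79a was above background on 3 and Cd79b on 2 of the 4 vehicle titled GFP+ arrays. Of 7 T and NK cell markers 2 passed with vehicle, Cd3e and Nkg7, each above background on 1 of 4 titled GFP+ arrays. Of 8 eosinophil, basophil and mast cell markers 5 passed, and Prg2 and Cpa3 were at least 1.66-fold and 1.55-fold higher in titled GFP+. Of the 5, Epx and Siglecf lay below background in both fractions with vehicle. Of 6 erythroid and platelet markers 3 passed, with Slc4a1, the red cell anion exchanger, at -3.07 ± 0.48 (adjusted p = 1.9e-04) and above background in both fractions. The platelet genes Pf4, Ppbp and Itga2b did not pass, at -0.050, 0.21 and 0.15. Pf4 and Ppbp lay below background in both fractions, so their differences carry no measured level. After subtracting each array's median over tested features, 2 of the 6 were called higher in titled GFP- with vehicle, where 12456 of all 19572 features were. The share of the granule signals that comes from cells other than neutrophils was not tested.

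**Figure D2:**
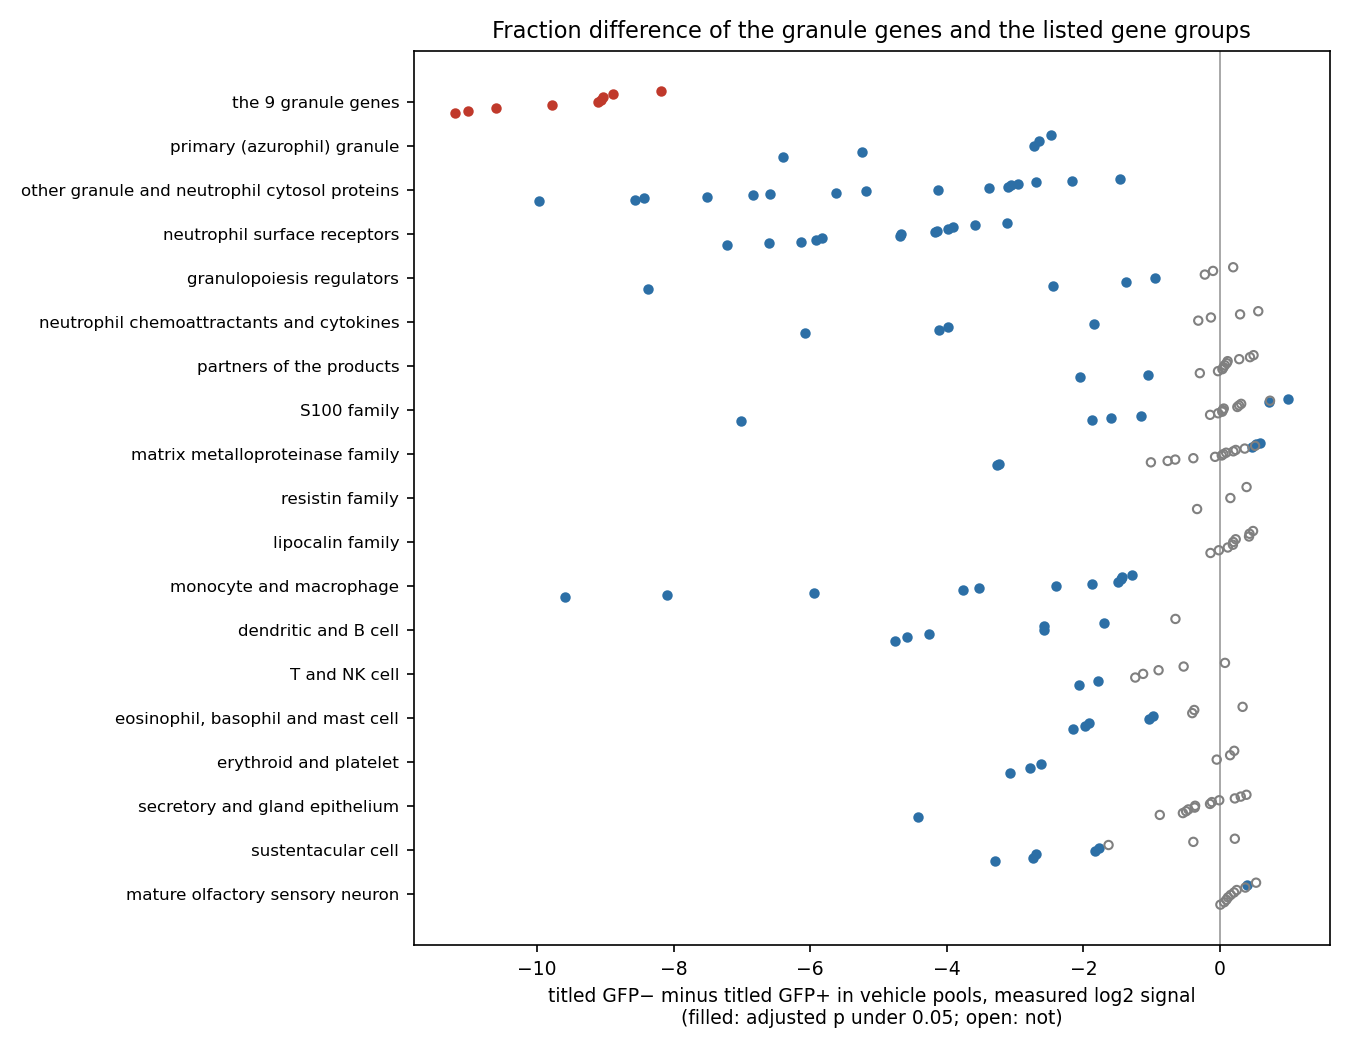
Measured difference in log2 signal, vehicle titled GFP- minus titled GFP+ (x axis), of each measured gene in 19 groups (y axis), filled where the adjusted p was under 0.05 and open where it was not; the 9 granule genes are red. The granule genes lie between -11.19 and -8.19, while the mature neuron markers lie between 0.004 and 0.53. Of these markers 1 of 10 was called, as higher (10 after subtracting each array's median over tested features, 0 with the receptor median). Of all 19572 features, 1380, 12456 and 343 were called higher under these scalings, in the same order. Differences of genes at background in 1 fraction are measured values, not bounds.

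Odor exposure was compared with vehicle within each fraction, the question being whether the granule genes differ after the odor mixture. None of the 9 genes passed in titled GFP+ arrays, where 0% of features were called, in titled GFP- arrays, where 0% were called, or for the difference between the fraction differences, where 0% were called (limma). At an unadjusted p under 0.05 the count was also 0 of 9 in each of these 3 comparisons. In titled GFP+ arrays the median of the 9 differences was -0.04, against -0.03 over all features. Camp had the lowest difference at -0.33 (95% interval -1.45 to 0.79, adjusted p = 0.89) and S100a8 the highest at 0.12 (-0.75 to 0.99, adjusted p = 0.96).

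The intervals show what size of change these arrays could not tell from 0, under a model that gives each gene a common spread over all groups. The dim titled GFP- arrays enter that spread. For Mmp9 the SD was 1.36 (odor) and 0.98 (vehicle) in titled GFP+ against 0.35 and 0.27 in titled GFP-, so its interval understates the titled GFP+ spread. For Lcn2 the order was reversed, 0.33 and 0.41 against 0.68 and 0.63. Ltf had the widest, -1.54 to 0.90 around -0.32, or from 0.344-fold to 1.86-fold of vehicle. Lcn2 had the narrowest, -0.65 to 0.78 around 0.07, or from 0.638-fold to 1.72-fold. Ngp differed by -0.12 (-1.06 to 0.83), Mmp8 by 0.06 (-0.93 to 1.04), Mmp9 by -0.16 (-1.29 to 0.98), Retnlg by 0.03 (-0.80 to 0.86) and S100a9 by -0.04 (-0.84 to 0.77). Leaving out 1 pool in turn changed the sign of the odor difference of each of the 9 genes, so no direction is given. In titled GFP- arrays, where the genes lay at background, the differences ran from -0.22 (S100a9) to 0.47 (Camp). The interaction ran from -0.18 for S100a9 to 0.81 for Camp, whose interval was -0.78 to 2.39. The 34 genes of the other neutrophil lists had odor differences from -0.69 to 0.85 in titled GFP+ arrays, with a median of 0.001 and a smallest adjusted p of 0.54.

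With the replicate number as a block, a pairing described below, the intervals narrowed and still held 0 for all 9 genes. Retnlg then had -0.28 to 0.34, Mmp9 -0.59 to 0.28 and Ltf -0.81 to 0.17, with adjusted p of 0.55 to 0.96 over the 9 genes. Within numbers the odor minus vehicle difference of S100a8 was -0.79, 0.28, 0.57 and 0.43 in numbers 1 to 4. That of Camp was -1.77, -0.08, 0.85 and -0.33. The 4 numbers thus disagreed in sign for these genes.

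**Figure D3:**
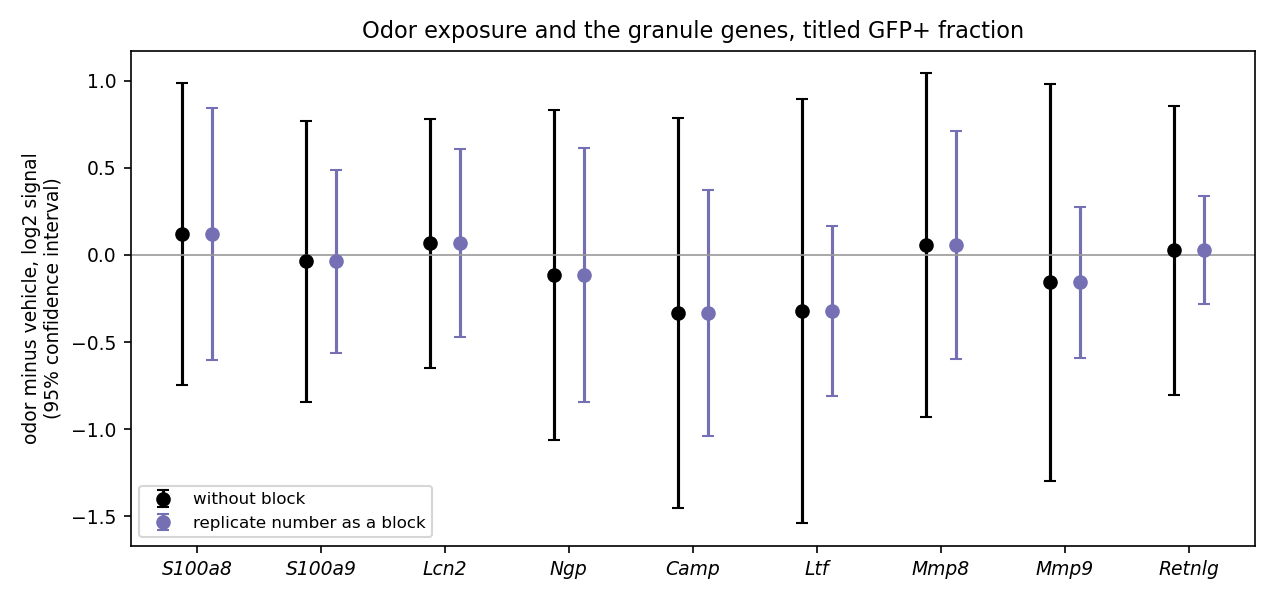
Odor minus vehicle difference in log2 signal (y axis) of the 9 granule genes (x axis) in titled GFP+ arrays, 4 against 4, with 95% intervals from limma, black without and violet with the replicate number as a block. All 18 intervals include 0, and those of Ltf, Mmp9 and Retnlg are shorter with the block.

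The granule genes also varied among the pools of a treatment. In titled GFP+ arrays, replicate 4 was the lowest of the 4 odor arrays for 9 of 9 genes and of the 4 vehicle arrays for 8 of 9. The exception was Mmp8, at 12.69 in vehicle replicate 2 and 12.86 in replicate 4. For 7 of 9 genes, all but Ngp and Camp, the arrays of replicates 1 and 3 all lay above those of 2 and 4. These orders were picked after the values were seen, and their shares over all features were not counted. The 9 genes varied together (median pairwise r 0.893), so the counts are not independent observations. The mean of the highest number was 6.08-fold that of the lowest for Mmp9, 5.97-fold for Ltf, 4.51-fold for Camp and 3.55-fold for Mmp8. It was 2.62-fold for Retnlg, 2.57-fold for S100a9, 2.45-fold for S100a8, 1.95-fold for Ngp and 1.76-fold for Lcn2.

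A limma F-test of the replicate number within titled GFP+ arrays, chosen after these values were seen, called 4 of 9 genes, against 6.04% of all features. They were Mmp9 (adjusted p = 0.0013), Ltf (adjusted p = 0.0025), Retnlg (adjusted p = 0.0037) and Camp (adjusted p = 0.035). In titled GFP- arrays the same F-test called Retnlg (adjusted p = 0.044), although all its values there lay below background. The other genes had adjusted p of 0.27 to 0.83 there, and the share called over all features was not counted. In titled GFP+ arrays without replicate 1, 0 of 9 genes passed, with a smallest adjusted p of 0.056, and 0.143% of all features did. Without replicate 4, Ltf and Mmp9 passed. Centring arrays on their receptor median gave 9 of 9 and 20% of all features. Of the 34 genes in the other neutrophil lists, 22 were called. In the lists of other blood cells the F-test called 5 of 11 monocyte and macrophage, 2 of 7 dendritic and B cell, 3 of 7 T and NK cell, 1 of 8 eosinophil, basophil and mast cell and 3 of 6 erythroid and platelet markers. The 5 monocyte and macrophage markers above background on all titled GFP+ arrays deviated from their mean by 1.06, -0.05, 0.22 and -1.11 in odor and by 1.01, -0.51, -0.15 and -0.48 in vehicle replicates 1 to 4. The 9 granule genes deviated by 0.52, -0.29, 0.64 and -1.01 and by 1.01, -0.29, 0.21 and -0.78. The 2 erythroid markers above background deviated by 1.41, -0.87, -0.39 and -0.84 and by 1.69, -1.07, 0.53 and -0.46, and the 9 mature neuron markers by -0.11 to 0.07. Other lists differed from this order. The 3 dendritic and B cell markers deviated by 0.17, -0.37, -0.70 and -0.25 in odor and by 1.73, -0.33, -0.46 and 0.21 in vehicle replicates, and 2 azurophil genes by 0.56 in vehicle replicate 4, where the granule genes were low. The part of blood cell content in the pattern of the granule genes was not tested, nor do the labels say what same-numbered pools shared.

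**Figure D4:**
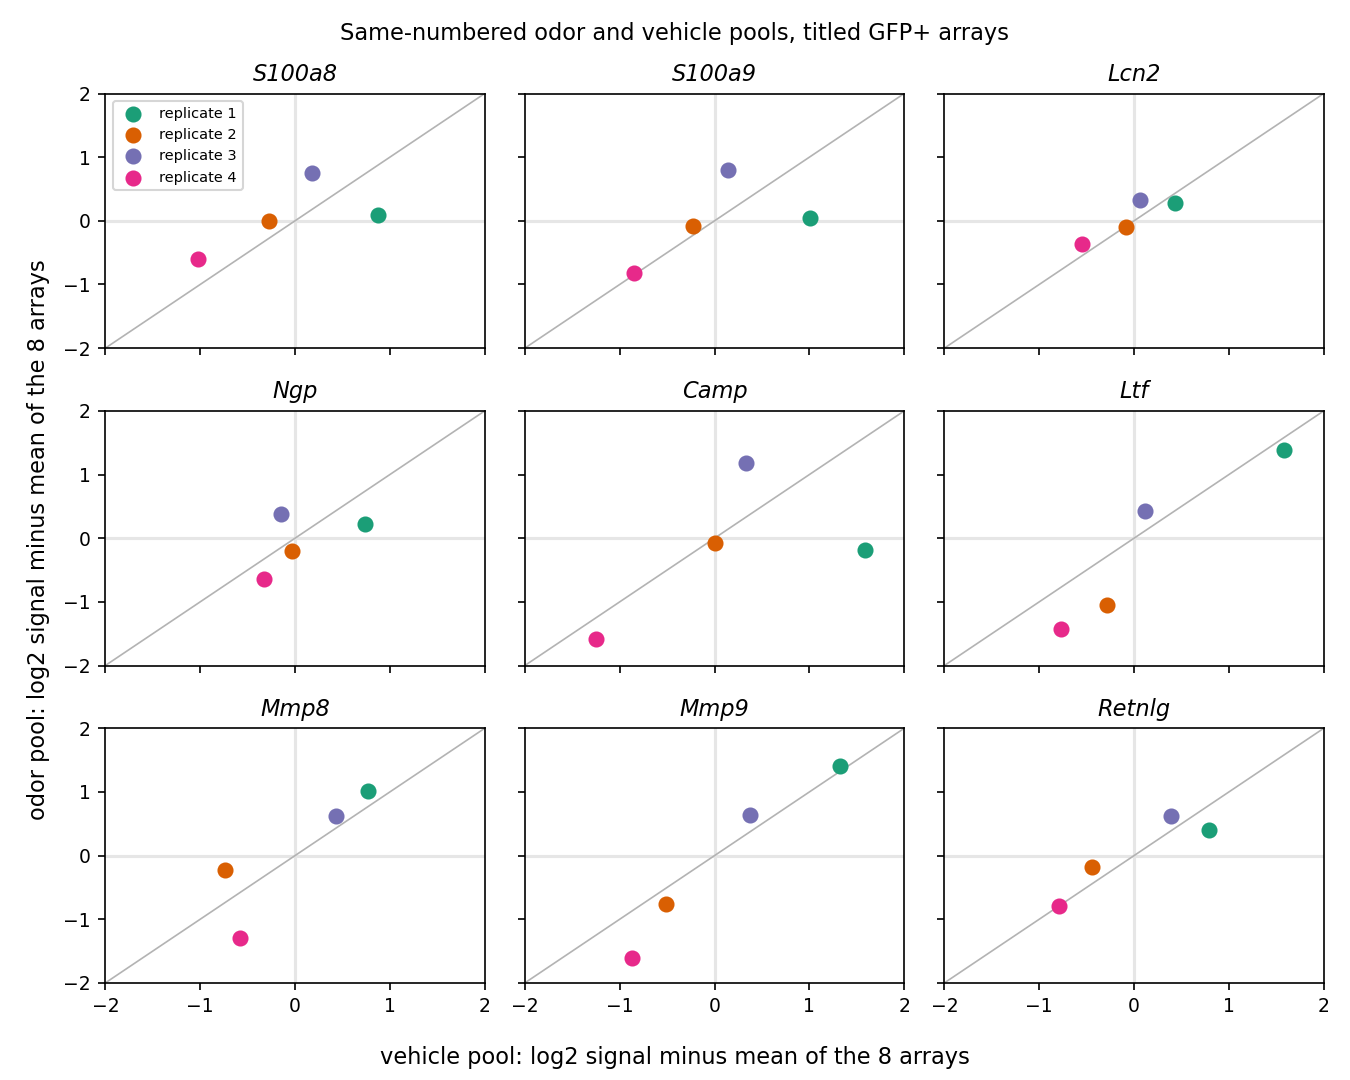
Log2 signal minus the mean of the 8 titled GFP+ arrays in the vehicle pool (x axis) and the odor pool (y axis) of the same replicate number, 1 panel per granule gene and 1 colour per number; the grey diagonal marks equal deviation. Replicate 4 lies below 0 on both axes for all 9 genes, and the mean of replicate 1 exceeds that of replicate 4 by up to 2.60 units (Mmp9).

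Over the 8 titled GFP+ arrays the 9 genes rose and fell together, as a description of arrays that share numbers and sorting. Their 36 pairwise Pearson correlations ran from 0.727 (S100a8 with Ltf) to 0.982 (S100a8 with S100a9), with a median of 0.893. Among 8741 other features above background on all 8 arrays, the correlation with the mean of the 9 standardized genes had a median of -0.155. The 10 most alike were Lsp1, Glrx, Ly6c1, Cd300lf, Alox5ap, Bin2, Ncf4, Ctdsp1, Cd52 and Skap2, at 0.973 to 0.987. Of these, 9 were lower in titled GFP- with vehicle, against 10.6% of the 8741, which all had to be above background in titled GFP+. The 10 were picked for likeness to the 9 genes, so this count is no separate support for the fraction difference. Among the 9 were Ly6c1, a surface antigen not confined to myeloid cells, at least 63.6-fold higher in titled GFP+ (adjusted p = 2.0e-10), and Ncf4, a subunit of the phagocyte oxidase, at least 14.4-fold. Alox5ap, needed for leukotriene synthesis, was at least 15.3-fold and Cd52, a leukocyte surface glycoprotein, at least 11.9-fold higher in titled GFP+. Skap2 did not pass, at -0.42 ± 0.22 (adjusted p = 0.20).

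Camp, Ngp and Ltf lie in this order on chromosome 9 in RefSeq, with 8 protein-coding genes between Camp and Ngp and 20 between Ngp and Ltf. Of these 28 genes 27 were measured, and in vehicle pools 17 lay below background in both fractions. Of the 27, 3 were lower in titled GFP-, against 9.82% of all features. These lie between Camp and Ngp: Map4 (-1.19 ± 0.29, adjusted p = 0.0078), Cspg5 (-0.87 ± 0.28, adjusted p = 0.041) and Cdc25a (-1.58 ± 0.39, adjusted p = 0.0088, above background on 1 of 8 arrays). None of the 19 measured between Ngp and Ltf passed, with differences from -0.009 to 0.32. Mmp8 is also on chromosome 9, Lcn2 and Mmp9 are on chromosome 2 and Retnlg is on chromosome 16.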

How the data were processed

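The members and the gene lists were chosen with earlier results of these data known. The deposited values, 28846 rows on each of 16 Clariom S arrays, were read as log2 signals from their range, 1.77 to 19.3. The authors made them with Affymetrix Expression Console, per the submitters' processing notes; background correction, normalization and summarization are not given in the sources used here. Differences rest on the deposited scale. Samples were grouped by title into 4 groups of 4 arrays. Symbols came from the platform annotation, and all 19572 features with 1 symbol matched RefSeq (GRCm38.p6), with 0 symbols changed.

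Group means were fitted with limma 3.58.1 (R 4.3.3) on all 16 arrays and 19572 features, with two-sided moderated tests and Benjamini-Hochberg adjustment at 0.05. SE values come from this model. The number of arrays limits the precision. The procedure was tested on simulated data.

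A value was above background when it exceeded the 95th percentile of the array's 23 GC-graded background features. The planned fallback was the 95th percentile of the array's 5222 negative controls. The GC-graded level was used in its place because earlier work on these values states its range, and the negative controls became the alternative. An at-least fold is the mean of the brighter group over the mean, per array, of the higher of the dim value and the lowest tested signal above background. Named genes were the 9 members, S100a5, the 2 highest and 2 lowest vehicle differences of each list among features above background in at least 1 group, and the 10 features most correlated with the members; others named were chosen after their values were seen. Muc2 stood in 2 lists. Protein comparisons were not run.

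Same-numbered odor and vehicle pools deviated together, at correlations of 0.147 to 0.547 in titled GFP+ and 0.178 to 0.379 in titled GFP- arrays, and the fractions of a pool, which share mice, at 0.096 to 0.337. Alternatives were 3 other scalings, a filter on dim features, limma with trend and robust, the pool and the replicate number as blocks, each pool left out, and other background levels. The F-test of the replicate number was added after the data were seen.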

Additional observations from a re-analysis of the deposited data

Results flagged for a closer look

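Among 36 groups of 4 values (9 genes in 4 groups), 2 held an array whose gap to the nearest of the others, over the range of the group, exceeded Dixon's 95% critical value. Chance flags about 1 in 20 groups. S100a9 read 5.399 log2 units in titled GFP- vehicle replicate 2, the lowest of its group (gap over range 0.878). Mmp8 read 3.702 in the same array, also the lowest (0.888). Both values lie below the array's background of 6.94, where the order of arrays carries no measured level, and titled GFP+ arrays of the 9 genes gave 0 such values.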

How the results depend on the processing

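All 9 fraction differences kept their direction and their call in vehicle and in odor pools under every alternative run, and the counts of odor and interaction calls stayed at 0 of 9. The 9 genes passed the filter on dim features through their titled GFP+ arrays. This filter, limma with trend and robust, and both blocks (pool and replicate number) can change only SE and calls. The direction under them was fixed in advance. The differences ranged, without each pool in turn, from -11.60 to -7.61 with vehicle and from -11.32 to -7.04 with odor. With the pool as a replicate block or the replicate number as a replicate block the fraction and odor differences are the same values (Lcn2 -11.19 with vehicle, Camp -0.33 for odor in titled GFP+), and no call of the 9 genes changed. Background decides the bounds: with the 99th percentile the at-least folds ran from 24.2 to 849 with vehicle and from 21.9 to 1015 with odor, and with the negative controls from 6.7 to 236 and from 4.5 to 207, where 0 of 72 titled GFP- values were above background in place of 1. Bounds of the listed genes were taken at the GC-graded level only. The negative control level, 9.14 to 10.88, exceeds the vehicle titled GFP+ means of dimmer genes, which would have no bound there. Examples are Mcemp1 (8.81), Trem3 (8.69), Lrg1 (8.30), Asprv1 (8.95), Prtn3 (7.92) and Cxcl2 (8.19), while brighter genes such as Chil3 (16.02) and Spi1 (14.91) lie above it. The count of genes called for replicate number in titled GFP+ arrays, 4, was 9 with arrays centred on the receptor median, and ranged from 0 (without replicate 1) to 5. Signs of small differences turned as follows; the cause was not tested. After renewed quantile normalization the odor difference was -0.013 for Retnlg in titled GFP+ and -0.029 for Mmp8 in titled GFP-. After subtracting each array's median over tested features it was 0.067 for S100a9 in titled GFP+, and the Lcn2 interaction was -0.00030. With arrays centred on the receptor median the titled GFP+ odor difference was 0.23 for S100a9, 0.15 for Ngp and 0.11 for Mmp9, and the Lcn2 interaction -0.10. Without each pool in turn, the titled GFP+ odor difference ranged from -0.20 to 0.43 (S100a8), -0.33 to 0.29 (S100a9), -0.11 to 0.22 (Lcn2), -0.26 to 0.11 (Ngp), -0.81 to 0.14 (Camp), -0.84 to 0.15 (Ltf), -0.27 to 0.50 (Mmp8), -0.65 to 0.35 (Mmp9) and -0.23 to 0.30 (Retnlg). That in titled GFP- ranged from -0.14 to 0.40 (Lcn2), -0.38 to 0.50 (Ngp), -0.016 to 0.52 (Ltf), -0.24 to 0.275 (Mmp8) and -0.37 to 0.14 (Retnlg). The interaction ranged from -0.054 to 0.62 (S100a8), -0.47 to 0.165 (S100a9), -0.14 to 0.51 (Lcn2), -0.175 to 0.61 (Ngp), -0.66 to 0.42 (Mmp8) and -0.27 to 0.10 (Retnlg).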

Other observations

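In odor pools 2 genes for partners of the granule proteins were lower and 1 higher in titled GFP- of 12 measured. Of all 19572 features, 9.98% were called lower and 2385 higher. There were 4 partner genes higher after subtracting each array's median over tested features, where 9658 features were, and 0 with the receptor median, where 341 were. Slc22a17, the lipocalin 2 receptor, was higher in titled GFP- by 0.42 with odor (adjusted p = 0.014, limma), but the difference was -0.051 with arrays centred on the receptor median. Lrp1, a receptor that takes up lactoferrin, was at least 1.02-fold higher in titled GFP+ (adjusted p = 3.6e-04).

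Sustentacular cell markers, of the supporting cells between the neurons, were lower in titled GFP- in 5 of 8 with vehicle and 6 of 8 with odor. The shares of all features were 9.82% and 9.98%. Krt18 was at least 6.33-fold and Sult1c1 at least 5.61-fold higher in titled GFP+ with vehicle, Sult1c1 being above background on 3 of 4 dim arrays. The 5 markers above background on all titled GFP+ arrays deviated from their mean by -0.24, -0.34, -0.31 and 0.36 in odor and by 0.61, -0.23, -0.38 and 0.53 in vehicle replicates 1 to 4. The granule genes deviated by 0.52, -0.29, 0.64 and -1.01 and by 1.01, -0.29, 0.21 and -0.78, with the same sign in replicate 2 of each treatment and in vehicle replicate 1, and the opposite sign in the others.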
